A study of Mus musculus with 3 samples.

Results

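Apolipoproteins are the proteins that coat the lipid particles of blood plasma, and 10 of their genes in the mouse were followed here: Apoa1, Apoa2, Apoa4, Apoa5, Apob, Apoc1, Apoc2, Apoc3, Apoe and Apom. The genes were taken from a list of the family, chosen with earlier results of these data known. Every array probe whose RefSeq accession belongs to one of them was used. Of the 10 genes, 9 had such a probe, among 20546 genes named on the array in the same way, and they were read by 11 probes. No probe was matched to Apoc2, which is not analysed here.

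The series asks whether a spleen can be turned towards a liver in the living mouse, and 3 RNA samples from female mice were each hybridised to 1 array. The SiO2-3TF-3C spleen came from mice given SiO2 (silica) and 3TF-3C, a treatment whose name the labels do not spell out. The normal liver had no stated treatment and is called a positive control. The SiO2 spleen came from mice given SiO2 without 3TF-3C. Both spleens therefore carried SiO2, and both were collected on day 82. The design text states that 5 samples were pooled per group for cells and spleens, and does not say whether this covers the liver. Strain, age and dose are not given in the sources used here.

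With 1 array per group there is no replicate check and no test, so precision is limited by how few arrays there are. Each difference is a log2 difference of scaled levels, that is, of log2 processed signal minus the array's 75th percentile. The ± after it is the scanner software's technical error of that difference, which leaves out all variation between animals. The size of 2-fold is used below to count genes. Of the 43020 spots on each array, between 77.2% and 81.3% were well above background and 0 were saturated. All 12 hepatocyte markers exceeded 2-fold in normal liver relative to SiO2 spleen. The marker lists were chosen with earlier results known, so this is no independent check of the labelled tissues. On the liver array 8 of 8 lymphocyte markers also stood well above background, and 5 of them were 2-fold or more under the SiO2 spleen.

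Lipoproteins carry cholesterol and triglyceride through plasma. Apolipoprotein B is the structural protein of the particles the liver and intestine secrete, apolipoproteins A-I and A-II are the main proteins of high-density lipoprotein, and the C apolipoproteins and apolipoprotein A-V set how fast lipoprotein lipase clears triglyceride. Hepatocytes make most of these proteins, with the intestine as another source of some, whereas macrophages in many tissues, spleen included, also make apolipoprotein E, the ligand by which remnant particles are taken up.

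Several of the genes lie next to each other in the mouse genome. On chromosome 7 the protein-coding order is Apoc2, Apoc4, Apoc1, Apoe, and on chromosome 9 it is Apoa1, Apoc3, Apoa4, Apoa5, while Apoa2, Apob and Apom lie apart on chromosomes 1, 12 and 17. The promoters of 4 members are printed here because the values below separate them: Apoe was bright on every array, Apoa1 had 0 spots well above background in SiO2 spleen, Apoa5 had the lowest share of its liver signal, and the share of Apob differed between its probes. Each runs 5′ to 3′ from 250 bases before to 50 bases after the first start site listed (RefSeq, GRCm38.p6). Apoe is at chr7:19699139-19699438 on the minus strand, Apoa1 at chr9:46228380-46228679, Apoa5 at chr9:46268358-46268657 and Apob at chr12:7977427-7977726, all 3 on the plus strand. Capitals mark GGGTCA or TATAAA on either strand, and the Apoa1 sequence holds none of the letters searched.
Apoe: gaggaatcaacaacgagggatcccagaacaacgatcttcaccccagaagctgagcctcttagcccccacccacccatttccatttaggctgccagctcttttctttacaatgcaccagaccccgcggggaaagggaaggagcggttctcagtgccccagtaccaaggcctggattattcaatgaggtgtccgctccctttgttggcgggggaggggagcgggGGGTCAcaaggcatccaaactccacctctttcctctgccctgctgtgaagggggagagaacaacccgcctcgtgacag
Apoa1: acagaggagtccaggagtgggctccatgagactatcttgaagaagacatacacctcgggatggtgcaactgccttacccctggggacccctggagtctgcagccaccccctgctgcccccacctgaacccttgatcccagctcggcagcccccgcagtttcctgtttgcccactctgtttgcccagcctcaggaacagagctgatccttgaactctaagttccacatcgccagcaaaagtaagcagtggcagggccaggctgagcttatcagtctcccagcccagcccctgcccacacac
Apoa5: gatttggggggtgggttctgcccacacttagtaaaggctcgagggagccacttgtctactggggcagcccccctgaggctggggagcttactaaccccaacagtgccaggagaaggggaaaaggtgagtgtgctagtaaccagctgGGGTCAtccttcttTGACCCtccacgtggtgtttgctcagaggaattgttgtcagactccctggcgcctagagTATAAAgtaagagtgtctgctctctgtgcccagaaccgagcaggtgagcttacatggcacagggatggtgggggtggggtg
Apob: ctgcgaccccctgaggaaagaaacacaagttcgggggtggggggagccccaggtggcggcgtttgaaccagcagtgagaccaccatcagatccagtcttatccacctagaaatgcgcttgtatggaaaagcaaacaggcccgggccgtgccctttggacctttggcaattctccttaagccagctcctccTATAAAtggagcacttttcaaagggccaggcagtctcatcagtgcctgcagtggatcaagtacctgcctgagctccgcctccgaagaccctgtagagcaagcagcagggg

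Motif letters were searched on both strands in 27025 mouse promoters of this length, 8 of them of the listed genes. Apoc1 and Apoc3 were not in that table. GGGTCA, a hexamer of the kind nuclear receptors bind, was in 3 of the 8 (Apoa5, Apoe and Apom) and in 13.5% of all promoters. In Apoa5 it began at positions -104 and -90 from the start site, on opposite strands, and in Apoe at position -28. TATAAA, the letters of a TATA box, was in Apoa2, Apoa5 and Apob, 3 of the 8, and in 14.2% of all. It began at position -31 in Apoa5, -60 in Apob and -212 in Apoa2. AGGTCA, the other nuclear receptor hexamer searched, was in Apoc2 alone of the 8 and in 16.0% of all. TTGCGC, the core of a C/EBP motif, and GGGCGG, the GC box, were in 0 of the 8 and in 6.66% and 35.9% of all promoters. A match describes letters in this window and is not evidence of binding.

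Apoa1 encodes the main protein of high-density lipoprotein. Its processed signal was 1977 in the SiO2-3TF-3C spleen, 16660 in the normal liver and 7.59 in the SiO2 spleen. The probe was printed on 10 spots, which agreed closely on the first 2 arrays (SD of log2 signal 0.06 and 0.08), and in the SiO2 spleen 0 of 8 unflagged spots were well above background. Relative to SiO2 spleen, Apoa1 was thus at least 253-fold higher in SiO2-3TF-3C spleen and at least 2812-fold higher in normal liver. With normexp background correction the log2 difference from SiO2 spleen was 5.06 for SiO2-3TF-3C spleen and 8.46 for normal liver, both smaller than these bounds, which therefore hold for the scanner's own background correction. The bounds set the bright array against the lowest level that was well above background on the dim one. In the SiO2-3TF-3C spleen Apoa1 stood at 8.99% of its liver signal (log2 difference -3.48 ± 0.20).

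Apoa2, the second most abundant protein of high-density lipoprotein, had processed signals of 18662 in the SiO2-3TF-3C spleen, 49351 in the normal liver and 929 in the SiO2 spleen. Its log2 difference was 4.47 ± 0.20 between the SiO2-3TF-3C and SiO2 spleens and 6.28 ± 0.20 between the normal liver and the SiO2 spleen. Unlike Apoa1, it was well above background on all 3 arrays by this probe. The other Apoa2 probe differed in size: its signal was 12930 in the SiO2-3TF-3C spleen and 30.1 in the SiO2 spleen, a log2 difference of 8.89 ± 0.22. Its liver spot was flagged and was left out here. The authors' deposited table holds a liver value for this probe and puts the SiO2-3TF-3C spleen at -0.83 from the liver on the log2 scale, against -1.41 for the brighter probe. Both probes put Apoa2 higher in SiO2-3TF-3C spleen, 22.2-fold by the brighter probe and 475-fold by the other, so the size of its difference depends on the probe, and so may its share of liver signal.

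Apom encodes the apolipoprotein that carries sphingosine 1-phosphate on high-density lipoprotein. Its signal was 1015 in the SiO2-3TF-3C spleen, 8013 in the normal liver and 30.6 in the SiO2 spleen. The log2 difference between the SiO2-3TF-3C and SiO2 spleens was 5.20 ± 0.22, which is 36.7-fold, and between the normal liver and the SiO2 spleen it was 8.58 ± 0.22. Apom stood at 9.59% of its liver signal in the SiO2-3TF-3C spleen, near the share of Apoa1.

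Apob, the structural protein of very-low-density lipoprotein and, in its shorter edited form, of chylomicrons, was read by 2 probes that both put the SiO2-3TF-3C spleen between the other arrays. By the brighter probe the signal was 413 in the SiO2-3TF-3C spleen, 5638 in the normal liver and 17.9 in the SiO2 spleen, giving log2 differences from the SiO2 spleen of 4.67 ± 0.28 for the SiO2-3TF-3C spleen and 8.84 ± 0.28 for the liver. By the other probe the signal was 886 in the SiO2-3TF-3C spleen, 3840 in the normal liver and 1.75 in the SiO2 spleen, the last not well above background, so that Apob was at least 113-fold higher in SiO2-3TF-3C spleen and at least 649-fold higher in normal liver. The SiO2-3TF-3C spleen held 5.54% of the liver signal by the brighter probe and 17.5% by the other. Where each probe lies in the transcript was not looked up.

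Apoc1, which slows the uptake of triglyceride-rich particles, had signals of 31865 in the SiO2-3TF-3C spleen, 47298 in the normal liver and 766 in the SiO2 spleen, a log2 difference of 5.52 ± 0.20 between the spleens. Apoc3, an inhibitor of lipoprotein lipase, had signals of 19430 in the SiO2-3TF-3C spleen, 29252 in the normal liver and 35.3 in the SiO2 spleen, a log2 difference of 9.25 ± 0.22. That difference of Apoc3, 608-fold, was the highest measured without a bound among the 9 genes. In the SiO2-3TF-3C spleen Apoc1 held 51.0% of its liver signal and Apoc3 50.3%.

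Apoa5, an activator of lipolysis, and Apoa4, an apolipoprotein of intestinal chylomicrons that mouse liver also makes, had the smallest differences between the spleens after Apoe. Apoa5 had signals of 122 in the SiO2-3TF-3C spleen, 1790 in the normal liver and 24.8 in the SiO2 spleen, a log2 difference of 2.44 ± 0.23 between the spleens. Apoa4 had signals of 42.7 in the SiO2-3TF-3C spleen, 377 in the normal liver and 11.8 in the SiO2 spleen, which is 4.01-fold with a technical error of 0.30 on the log2 scale. With normexp background correction the Apoa4 log2 difference was 0.70, under 2-fold, and every other member with a 2-fold difference between the spleens kept it. Apoa5 and Apoa4 held 5.17% and 8.59% of their liver signal in the SiO2-3TF-3C spleen.

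Apoe was well above background in every spot of all 3 arrays. Its mean signal over its spots was 46718 in the SiO2-3TF-3C spleen (9 spots), 66874 in the normal liver (10 spots) and 31682 in the SiO2 spleen (10 spots). The SD of log2 signal over the spots was 0.02 in the SiO2-3TF-3C spleen, 0.09 in the liver and 0.04 in the SiO2 spleen. The log2 difference between the SiO2-3TF-3C and SiO2 spleens was 0.70 ± 0.20, which is 1.63-fold and under the 2-fold size. Between the normal liver and the SiO2 spleen it was 1.62 ± 0.20, which is 3.08-fold, and the SiO2-3TF-3C spleen held 53.0% of the liver signal. In the authors' deposited table the log2 difference of Apoe was 0.90 between the spleens, 1.40 between the liver and the SiO2 spleen and -0.50 between the SiO2-3TF-3C spleen and the liver. For Apoc3 the authors' deposited table gave 9.43 between the spleens.

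**Figure D1:**
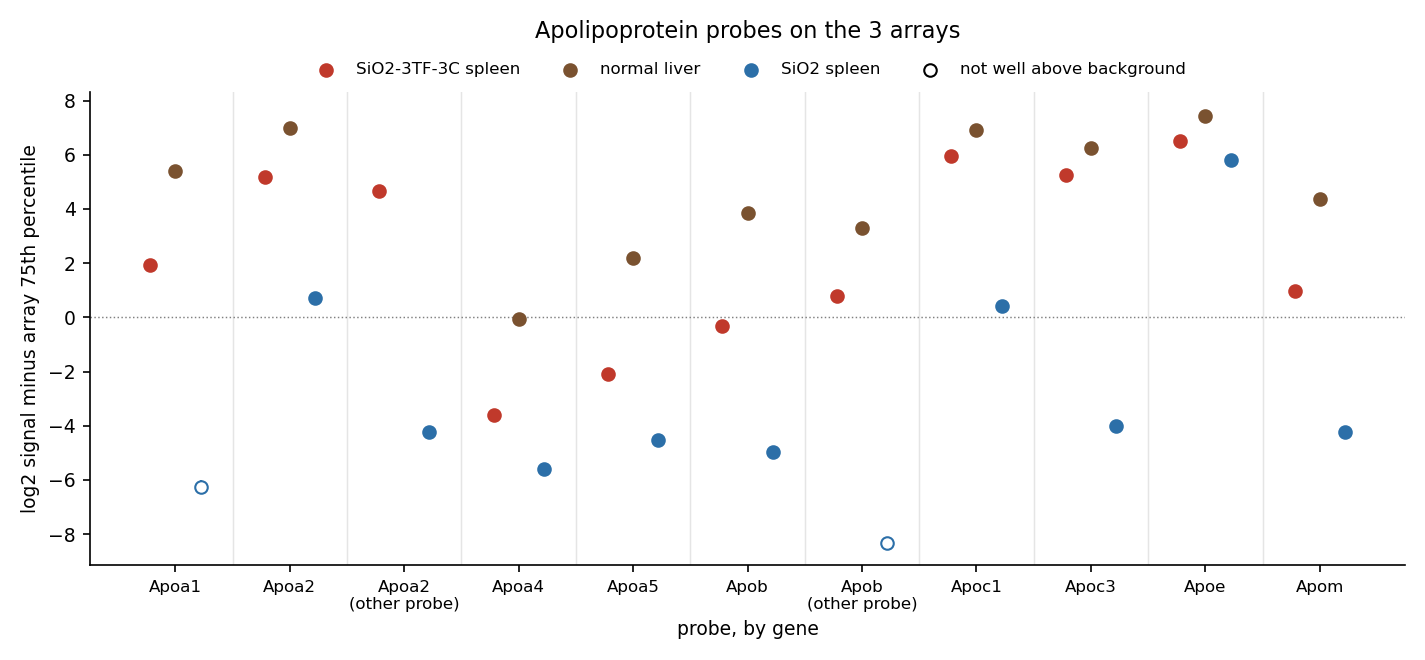
Scaled level (log2 processed signal minus the array's 75th percentile, y axis) of each apolipoprotein probe on the 3 arrays, with the SiO2-3TF-3C spleen left, the normal liver in the middle and the SiO2 spleen right. Each point is 1 probe on 1 array, and open points are not well above background. Apoe lies between 5.80 and 7.42 on every array, whereas Apoc3 lies at 5.24 in the SiO2-3TF-3C spleen, 6.23 in the liver and -4.01 in the SiO2 spleen.

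Set side by side, 8 of the 9 genes reached 2-fold above SiO2 spleen in SiO2-3TF-3C spleen, a size reached by 5.24% of the 17640 genes compared. Of the 9, 0 were 2-fold lower, against 1.39% of all, and Apoe lay between those limits. The median log2 difference of the 9 was 4.67, beside -0.15 over all genes compared. Between the normal liver and the SiO2 spleen 9 of 9 were at least 2-fold higher, against 15.4% of 17359 genes (17.0% were lower), with a median of 6.72 beside -0.14. Normexp background correction gave smaller log2 differences between the spleens for most members, at 7.80 for Apoc3, 4.14 for Apob and 1.26 for Apoa5, besides Apoa1, Apoa4 and Apom. In both comparisons the SiO2 spleen is the same array, so they are not independent of each other. The Apoe difference minus the median of the other 8 was -4.23 between the spleens and -6.03 between the liver and the SiO2 spleen. In bulk RNA, fewer cells of a type and less RNA per cell cannot be told apart.

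**Figure D2:**
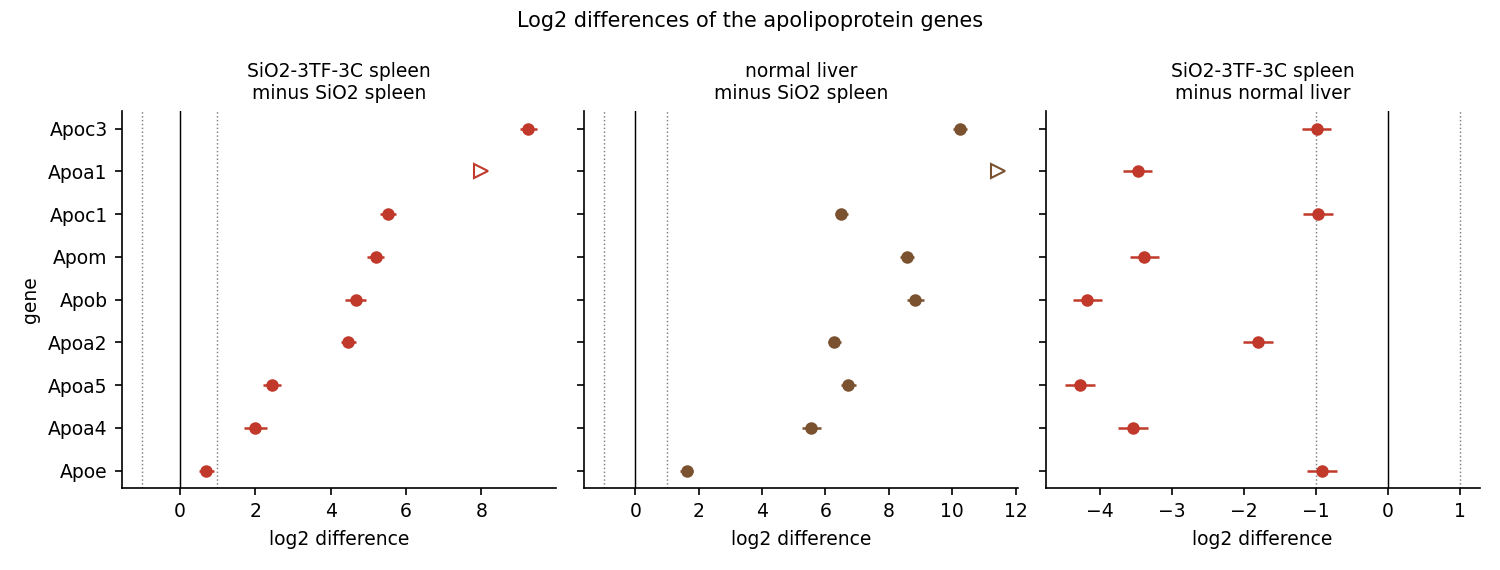
Log2 difference (x axis) of each of the 9 genes in the 3 comparisons, with the scanner software's technical error as bars, bounds as open triangles and 2-fold as dotted lines. Between the SiO2-3TF-3C and SiO2 spleens the differences run from 0.70 for Apoe to 9.25 for Apoc3, and between the SiO2-3TF-3C spleen and the liver all 9 are below 0.

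Between the SiO2-3TF-3C spleen and the normal liver 6 of the 9 genes were at least 2-fold lower, against 15.9% of 17213 genes compared (10.7% were higher), and Apoe, Apoc1 and Apoc3 were in between. The median of the 9 was -3.38, beside -0.03 over all genes compared. The shares of liver signal formed an upper set of Apoe, Apoc1 and Apoc3 at 50.3% to 53.0%, Apoa2 at 28.6%, and a lower set of Apoa1, Apoa4, Apoa5, Apob by its brighter probe and Apom at 5.17% to 9.59%. Apob by its other probe, at 17.5%, was outside that set. The place of Apoa2 rests on its brighter probe. In the authors' deposited table the other Apoa2 probe was at -0.83 from the liver on the log2 scale, against -1.41 for the brighter probe. Within the upper set the log2 differences ran from -0.99 to -0.92, closer together than their technical error of 0.20. Each was also within that error of the 2-fold limit, so the side on which it falls is not settled. After quantile normalization they were -0.50 for Apoe, -0.62 for Apoc1 and -0.66 for Apoc3. Within the lower set, Apom, Apoa1 and Apoa4 were also closer together than the technical error, at -3.38, -3.48 and -3.54.

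After subtraction of the SiO2 spleen's signal, Apoe was lower than the C apolipoproteins. The gap was not large beside the technical errors given below, and with no replicate arrays it was not tested. The gain of the SiO2-3TF-3C spleen over the SiO2 spleen, as a share of the gain of the liver over the SiO2 spleen, was 50.5% ± 7.26 for Apoc1 and 50.3% ± 7.12 for Apoc3 (± technical error). For Apoe it was 30.3% ± 9.65, and for Apoa2 by its brighter probe 27.7% ± 4.04. The other 5 genes gave 4.26% to 9.35%, about what their plain shares were, but Apob gave 16.3% with normexp background correction. The Apoe value depends on the scaling: it was 53.0% after quantile normalization and 53.1% from the authors' deposited table, settings chosen after the data were seen. The C apolipoproteins were higher too under these settings. Apoc1 was at 64.6% and Apoc3 at 63.4% after quantile normalization, and at 65.0% and 63.8% from the authors' deposited table. Apoe was thus below both in each, by a smaller gap for which no technical error was computed.

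The share of liver signal was also set beside the signal in liver. It was computed for 868 genes that exceeded SiO2 spleen by at least 8-fold in normal liver and were measured in both the SiO2-3TF-3C spleen and the liver, among them 8 of the 9 members (all but Apoe). Its median was 12.3%, with quartiles of 9.51% and 16.0%. For the 54 genes with a liver signal of 20000 or more, Apoa2, Apoc1 and Apoc3 among them, the median was 27.6% with quartiles of 16.6% and 46.8%. Apoc1 and Apoc3 were above that upper quartile, and Apoa2 by its brighter probe was near the median. In the 4 bins of lower signal the medians were 10.8% to 13.9%, and there Apoa1, Apoa4, Apoa5, Apom and the brighter Apob probe were each below the median of their bin, whereas the other Apob probe, at 17.5%, was above it. No spot was saturated, and the part that brightness plays in these shares was not tested.

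**Figure D3:**
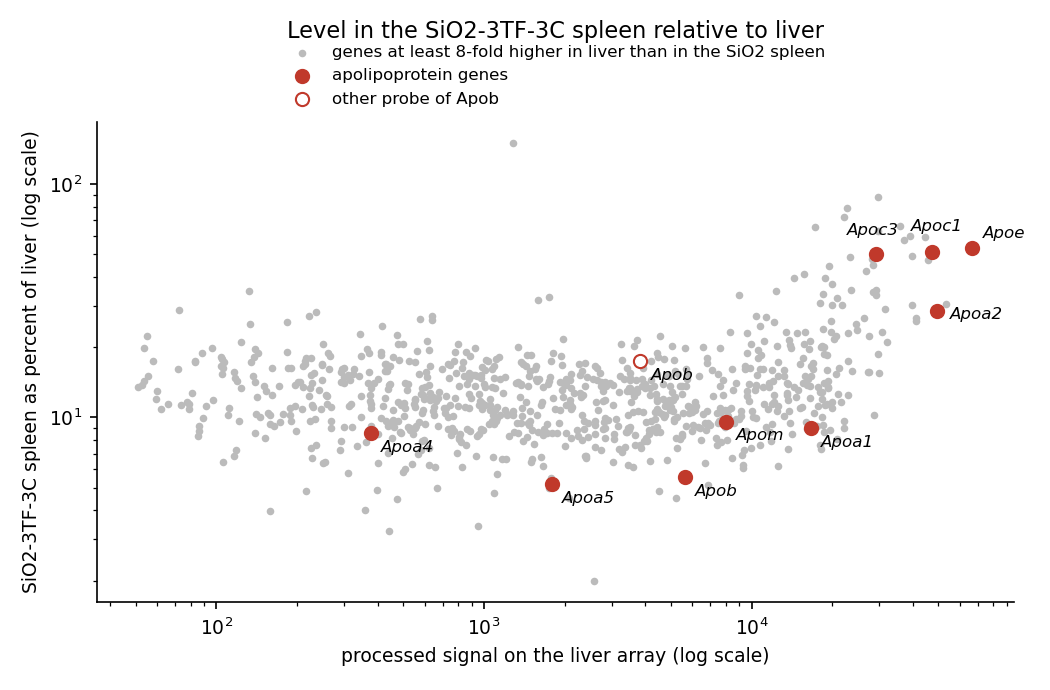
Signal in the SiO2-3TF-3C spleen as a percentage of the normal liver (y axis, log scale) against processed signal in liver (x axis, log scale). Grey points are genes whose liver signal exceeds SiO2 spleen by at least 8-fold, filled red points are the 9 apolipoprotein genes, Apoe included, and the open point is the other probe of Apob. Apoc1 is at 51.0% and Apoc3 at 50.3%, Apoa5 at 5.17%, and Apob at 5.54% by its brighter probe and 17.5% by the other.

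Neighbouring genes differed by unlike amounts. In the chromosome 9 group the SiO2-3TF-3C spleen was at least 253-fold above the SiO2 spleen for Apoa1 and 608-fold for Apoc3, but 4.01-fold for Apoa4 and 5.44-fold for Apoa5. In the chromosome 7 group Apoc1 was 46.0-fold higher and Apoe 1.63-fold. With normexp background correction the log2 differences were 5.06 for Apoa1, 7.80 for Apoc3, 0.70 for Apoa4 and 1.26 for Apoa5. They were 5.44 for Apoc1 and 0.67 for Apoe. Apoa1 was thus under its bound, and Apoa4 was near Apoe. A fold depends on the level it starts from, and Apoe was already bright in the SiO2 spleen. The linear gain over the SiO2 spleen, in units of each array's 75th percentile, was 35.1 for Apoe and 60.6 for Apoc1. For Apoc3 it was 37.7 and for Apoa1 3.82. The order of Apoe and Apoc3 depends on the scaling: after quantile normalization their gains were 46.7 and 42.9. No technical error is given for these gains. Apoc4, which lies between Apoc2 and Apoc1 and was named after its values were seen, was at least 204-fold higher.

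Cells other than hepatocytes can make some of these proteins, so the markers of such cells stand beside the values. Relative to SiO2 spleen all 12 hepatocyte markers reached 2-fold in SiO2-3TF-3C spleen, and their median log2 difference was 9.55. The iron carrier gene Trf differed by 1.05 ± 0.20, the fetuin gene Ahsg by 10.04 ± 0.22, the fibrinogen gene Fgb by 9.57 ± 0.25 and albumin, Alb, by 1021-fold. The summed level of the 12, in units of each array's 75th percentile, was 327 in the SiO2-3TF-3C spleen, 818 in the normal liver and 28.9 in the SiO2 spleen. These sums include Trf, which had the smallest difference of the 12, and its part in them was not separated. In SiO2 spleen, Rbp4, Serpina3k and Ttr were not well above background.

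The macrophage markers, by contrast, differed little between the spleens. Of 24 markers in the general, red pulp and lipid-laden macrophage lists, 1 was 2-fold or more higher in SiO2-3TF-3C spleen, 0 were lower and 23 lay between, the median being -0.13 with a range of -0.45 to 1.43. The 1 was Spp1, osteopontin, at 1.43 ± 0.20. The macrophage receptors Adgre1 and Csf1r differed by -0.02 ± 0.20 and -0.14 ± 0.20, and Spic, the transcription factor of red pulp macrophages, by -0.45 ± 0.20. Their summed level was 263.0 in the SiO2-3TF-3C spleen, 213.2 in the normal liver and 298.9 in the SiO2 spleen, and all 24 were well above background on every array. The median of these 24 lay near the -0.15 over all genes compared. The Apoe difference of 0.70 thus stood beside macrophage markers near that all-gene median and a higher summed hepatocyte level. The part of either in the Apoe difference was not tested.

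Kupffer cells, the macrophages of liver, gave a split list. The summed level of their markers was 33.6 in the SiO2-3TF-3C spleen, 46.3 in the normal liver and 32.9 in the SiO2 spleen. The lectin gene Clec4f differed by 6.41 ± 0.34 and the complement receptor gene Vsig4 by 4.11 ± 0.23 between the spleens, and the other 5 of 7 markers were in between, Timd4 at -0.34 ± 0.20. Of 8 enterocyte markers, which bear on Apoa4 and Apob, Alpi, Cdx2, Slc5a1 and Vil1 were not well above background in either spleen. Of the 4 enterocyte markers with a value between the spleens 1 was 2-fold higher and 3 lay between, with a median of 0.26: Anpep differed by 0.17 ± 0.20, Lct by 0.36 ± 0.30 and Sis by -0.96 ± 0.37. The 1 that was higher, Fabp2, a fatty acid binding protein gene, differed from SiO2 spleen by 3.08 ± 0.21 in SiO2-3TF-3C spleen and 6.37 ± 0.21 in normal liver. Of the other lists, 0 of 8 fibroblast, 1 of 6 stellate, 1 of 7 endothelial and 0 of 8 lymphocyte markers were 2-fold or more higher in SiO2-3TF-3C spleen, and 0 were 2-fold lower.

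Of the other apolipoprotein genes, 8 of 14 with a value were 2-fold or more above SiO2 spleen in SiO2-3TF-3C spleen, 0 were lower and 6 lay between, and the median was 2.59. Apoh, which encodes a phospholipid-binding plasma glycoprotein, was 9.41 ± 0.30 higher, and Apof, an inhibitor of cholesteryl ester transfer, 5.46 ± 0.21 higher. Apol9a and Apol9b, near-identical copies whose probes may read both, differed by 3.75 ± 0.20 and 3.54 ± 0.20. Clu, clusterin or apolipoprotein J, which many cell types make, differed by 0.10 ± 0.20 between the spleens and by 0.74 ± 0.20 between the liver and the SiO2 spleen.

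The genes that load lipid onto apolipoprotein B were in part higher. Of 13 assembly genes 5 were 2-fold or more above SiO2 spleen in SiO2-3TF-3C spleen and 8 lay between, with a median of 0.53, against 9 higher and 4 in between for the normal liver, with a median of 2.66. Mttp, the triglyceride transfer protein that Apob needs for secretion, was 3.43 ± 0.21 higher in SiO2-3TF-3C spleen, and Dgat2, which makes triglyceride, 3.11 ± 0.20. Cideb and Tm6sf2, both of which act in very-low-density lipoprotein lipidation, were 2.59 ± 0.20 and 1.54 ± 0.21 higher. Apobec1, the enzyme that edits Apob mRNA to the short form, was at like levels, -0.18 ± 0.20 between the spleens and -0.53 ± 0.20 between the liver and the SiO2 spleen.

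Lipases and remodelling proteins were higher in 5 of 10 genes with a value and in between in 5, with a median of 1.03. Between the spleens hepatic lipase Lipc differed by 1.33 ± 0.21 and the paraoxonase Pon3 by 1.21 ± 0.20. Pon1, a paraoxonase bound to high-density lipoprotein, was at least 636-fold higher and Lcat, which esterifies its cholesterol, at least 16.4-fold. Lpl, lipoprotein lipase itself, differed by -0.28 ± 0.20 and Gpihbp1, its endothelial anchor, by 0.86 ± 0.20.

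Receptors and efflux genes, which many cells use, were mostly in between. Of 13 genes of receptors and their regulators, 12 lay between the 2-fold limits and the median was -0.09. The scavenger receptor gene Msr1 differed by 0.75 ± 0.21, and the Apoe receptor gene Lrp8 by -0.67 ± 0.21. Of 8 efflux genes 1 was higher, the sterol transporter gene Abcg5 at least 24.9-fold, while Abca1 and Abcg1, which pass cellular cholesterol to Apoa1 and to high-density lipoprotein, differed by -0.25 ± 0.20 and -0.27 ± 0.20.

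Transcriptional regulators of hepatic lipoprotein genes were higher in 8 of 21 genes and in between in 13, with a median of 0.31, against 14 higher and 7 in between for the normal liver, with a median of 3.13. Hnf4a, a nuclear receptor that acts on many apolipoprotein promoters, differed by 8.37 ± 0.35 between the spleens. The bile acid receptor gene Nr1h4 was 4.48 ± 0.31 higher, and the carbohydrate-responsive factor gene Mlxipl 3.84 ± 0.21, while the fatty acid receptor gene Ppara was 15.95-fold higher. In SiO2 spleen Foxa1, Foxa2 and Foxa3 were not well above background, and Foxa2 was at least 17.4-fold higher in SiO2-3TF-3C spleen.

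**Figure D4:**
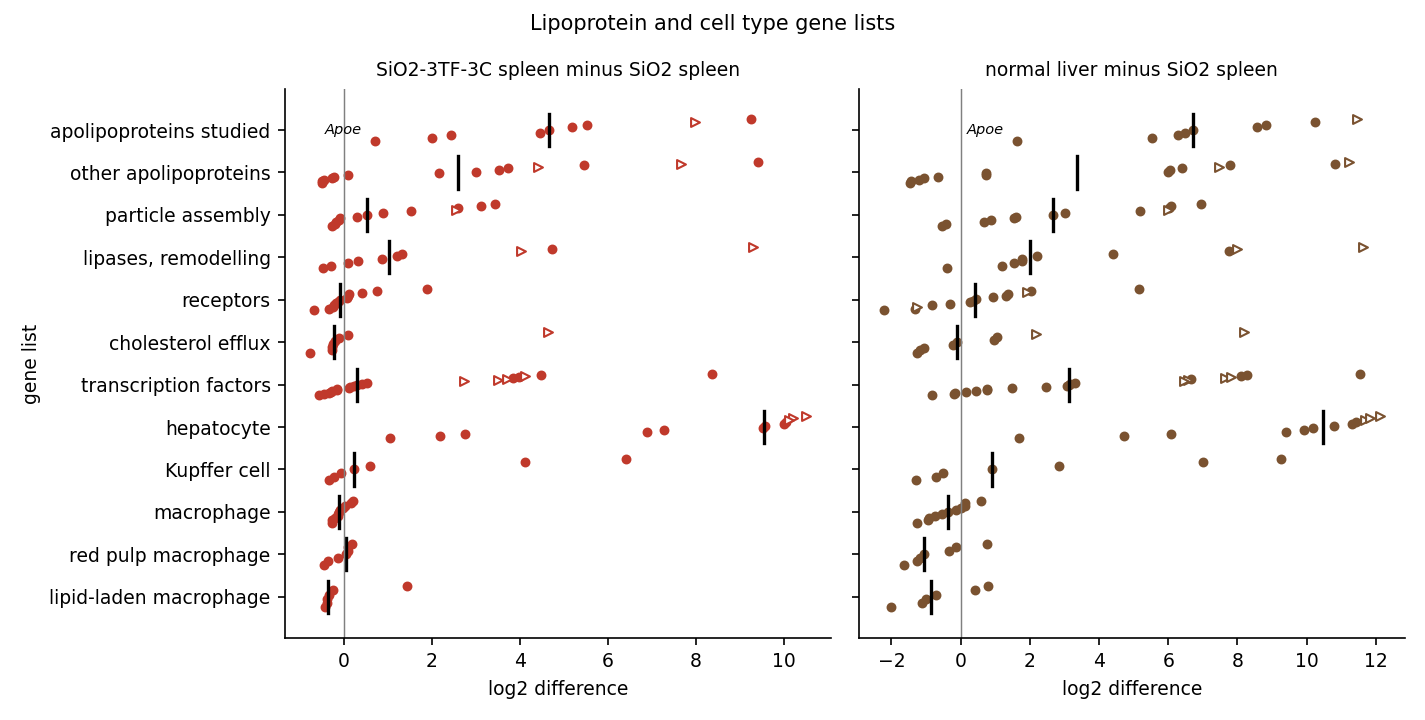
Log2 difference from the SiO2 spleen (x axis) of the SiO2-3TF-3C spleen, left, and the normal liver, right, for each gene of the apolipoprotein, lipoprotein pathway and marker lists, 1 list per row. Each point is a gene, open triangles are bounds and the bar is the list's median, which in the left panel is 4.67 for the apolipoproteins, 9.55 for the hepatocyte markers and -0.11 for the general macrophage markers.

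Genes of like pattern were sought by the Euclidean distance of the 3 centred scaled levels, over 16079 genes well above background on all arrays. Closest to Apoe were Slc16a10, an aromatic amino acid transporter gene, at 0.028, Trib3, a pseudokinase gene, at 0.032, and Acsl5, an acyl-CoA synthetase gene, at 0.047, and 726 genes lay within 0.5 of it. Closest to Apob were Gjb2, Cyp3a44 and Masp2, at 0.28 to 0.35, with 8 genes within 0.5. Closest to Apoc3 were Bhmt, Mup17 and Mup20, at 0.21 to 0.37, with 6 within 0.5. Genes dim in the SiO2 spleen, such as Apoc4 and Pon1, were not in this search, so the counts within 0.5 leave them out. With 3 arrays such a distance describes these samples only.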

How the data were processed

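RNA from 3 mouse tissue samples was labelled with Cy3 and hybridised to 1-colour Agilent arrays, 1 array per group, per the labels' protocols. Those protocols describe a blood RNA kit with globin reduction, which can change which RNAs are left. The deposited scanner files hold background-corrected spot intensity, with Feature Extraction 11.0.1.1 per the file headers and 9.1 per the submitters' processing notes. A deposited series table holds log2 values whose scaling the authors do not state: its columns have a median of 5.91 each, it correlates at 0.993 to 0.996 with the log2 signal of the same arrays, its centring is unknown, and it was used as an alternative.

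Control and flagged spots were left out, spots of a probe averaged, log2 taken, and the array's 75th percentile subtracted (Python 3.11.15, R 4.3.3, limma 3.58.1 for normexp). Of 39112 probes on all 3 arrays, 69.1% took a gene symbol through RefSeq accessions. A gene was represented by its brightest probe over the 3 arrays. A probe is well above background where the scanner software says so, and a comparison with 1 dim side is a bound. All bounds given were computed with the scanner's own background correction, and Apoa1 was under its bounds with normexp. Normexp used the median spot signal with offset 50, since the files hold no mean signal. The procedure was tested on simulated data, and the outcome of that test is not reported here.

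Members and gene lists were chosen with earlier results of these data known, and so give no independent support. The genes named are the members, up to 4 of each list with the largest difference between the spleens, and 9 fixed genes; Apoc4, Clu, Trf, Lcat, Pon1, Abcg5, Foxa1, Foxa2, Foxa3, Rbp4, Serpina3k and Ttr were named after their values were seen. A few genes that this rule selects are not reported here. Fold thresholds stand in for tests, which 1 array per group does not allow.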

Additional observations from a re-analysis of the deposited data

How the results depend on the processing

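9 alternatives were run on 7 values that answer a comparison: scaling by the median, quantile normalization, normexp, the authors' deposited values, the mean over probes, the dimmest probe, no filter on dim probes, members measured on all 3 arrays, and flagged spots kept. Of 63 values, 49 stayed close to the main one, 14 moved and 0 reversed. All members kept their direction in every alternative. The median between the SiO2-3TF-3C and SiO2 spleens (4.67) was 4.14 with normexp and 5.20 with the mean over probes and with the dimmest probe, and the Apoe gap (-4.23) was -3.69, -4.66 and -4.66. Between the liver and the SiO2 spleen the median (6.72) was 6.33 with normexp, and the Apoe gap (-6.03) was -4.94 with normexp and -5.10 over members measured on all 3 arrays. Between the SiO2-3TF-3C spleen and the liver the median (-3.38) was -2.54 with normexp, -3.13 with quantile normalization, -3.11 from the authors' deposited values, -2.52 with the dimmest probe and -2.59 over members measured on all 3 arrays. Cause was not tested, except that the last choice drops Apoa1. Apoe stayed under 2-fold between the spleens in all 9, at 0.67 to 0.91. With normexp 592 genes in place of 924 were 2-fold higher in SiO2-3TF-3C spleen and 40 in place of 245 lower, so that 93.7% in place of 79.0% of the calls were higher; with no filter 555 were lower, and 67.9% of calls were higher. Normexp gave 1633 in place of 2946 genes lower for liver against SiO2 spleen, and 861 in place of 1848 higher for SiO2-3TF-3C spleen against liver. In that liver comparison the median of all genes was 0.07 with normexp and -0.14 without. Fewer genes were tested with it. No paired analysis was possible because each group has 1 array and the labels give no replicate numbers.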
